A study of Drosophila melanogaster with 4 samples.

Results

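Transcripts of the mitochondrial genome were taken as every gene of the deposited expression table whose symbol begins with mt:, which gave 34 of 13012 genes. They comprised 13 protein-coding genes, the 2 ribosomal RNA genes mt:lrRNA and mt:srRNA, and 19 transfer RNA genes. All 34 were found in the Ensembl release 115 annotation of BDGP6, where 22 lie on the plus strand and 12 on the minus strand of the mitochondrial genome. That annotation holds 38 mitochondrial genes. The tRNAs Glu-TTC, Phe-GAA and His-GTG and the control region mt:ori were not analysed here. The members were chosen by name alone, so none of the values below decided which genes entered.

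RNA was sequenced from dissected thoraces, which consist largely of indirect flight muscle, of mated female Drosophila melanogaster kept on a high calorie diet and labelled as 10 days old. The 2 genotypes were Act88FGS>UAS-MEF2 RNAi and the driver control Act88FGS>w1118, each with RU486 or with the ethanol vehicle, and each of the 4 combinations is 1 library from 8 pooled thoraces. Act88FGS, carried by both genotypes, is a GeneSwitch transgene in which the promoter of the flight muscle actin gene Act88F drives a GAL4 fusion that needs RU486 to act, so RNAi against the transcription factor Mef2 is expected in only 1 of the 4 groups. The driver is not expected to act in other cells of the thorax, which also contribute to the RNA. The sample labels do not say which MEF2 RNAi line was used.

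The mitochondrial genome is transcribed inside the organelle, by its own RNA polymerase, into long transcripts from both strands. These are cut into messenger, ribosomal and transfer RNAs, largely at the tRNAs that lie between the longer genes, so neighbouring genes begin in a common precursor and their final amounts also depend on how each RNA is stabilised or degraded. The proteins are core subunits of respiratory complexes I, III and IV and of ATP synthase, which are completed by subunits made from nuclear genes, and flight muscle is among the tissues richest in these complexes.

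The deposited values are log2 values centred per gene: the 4 values of a gene sum to 0. A value gives a gene's position in a library relative to its own mean over the 4 libraries, and neither a level nor a read depth. With 1 library per group no difference has a replicate error or a p-value, and each compares 2 libraries. A change with RU486 is the log2 value with RU486 minus the value without it in the same genotype. The libraries as a whole were offset from each other. Taken over all genes, the median value was -0.18 in MEF2 RNAi +RU486, 0.19 in MEF2 RNAi without RU486, 0.17 in w1118 +RU486 and -0.18 in w1118 without RU486, and the median change with RU486 was -0.38 in the MEF2 RNAi genotype and 0.36 in the control. For this reason 2 further scales are used, on which the all-gene median of a library is subtracted from its values, which adds 0.36 to every change in MEF2 RNAi flies and -0.35 in w1118 flies, or the median of 87 genes for cytosolic ribosomal proteins is subtracted, which adds 0.47 and -0.49. Mef2 itself had values of -0.38, 0.25, 0.22 and -0.098 in the same order of libraries, with changes of -0.63 and 0.32. Relative to all genes these changes were -0.26 and -0.026, and against the ribosomal protein genes -0.16 in both genotypes.

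On the deposited scale mitochondrial transcripts were mostly highest in w1118 flies with RU486. This library held the highest value of 29 of the 34 genes, among them all 19 tRNAs, both rRNAs and 8 of 13 protein-coding genes, whereas it was the highest for 44.6% of all genes in the table. The other 5, mt:CoI, mt:CoIII, mt:Cyt-b, mt:ND2 and mt:ND5, peaked in MEF2 RNAi flies without RU486, the library that was highest for 49.3% of all genes. None peaked in MEF2 RNAi flies with RU486 or in w1118 flies without it, where 3.97% and 2.11% of all genes did. The lowest value lay in w1118 flies without RU486 for 25 genes, in MEF2 RNAi flies with RU486 for 6 and in MEF2 RNAi flies without RU486 for 3, where the shares over all genes were 47.4%, 48.2% and 2.14%. For 0 genes it lay in w1118 flies with RU486, compared with 2.24% of all genes. These ranks depend on the offsets between the libraries. Relative to all genes, MEF2 RNAi flies with RU486 lay below w1118 flies with RU486 by a median of -0.17 over the 34 genes. Some members lay above on that scale, among them Cys-GCA by 0.22, Ser-GCT by 0.23 and mt:ND2 by 0.025. The classes differed most in MEF2 RNAi flies without RU486, in which the median was 0.22 for the protein-coding genes and -0.19 for the tRNAs.

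**Figure D1:**
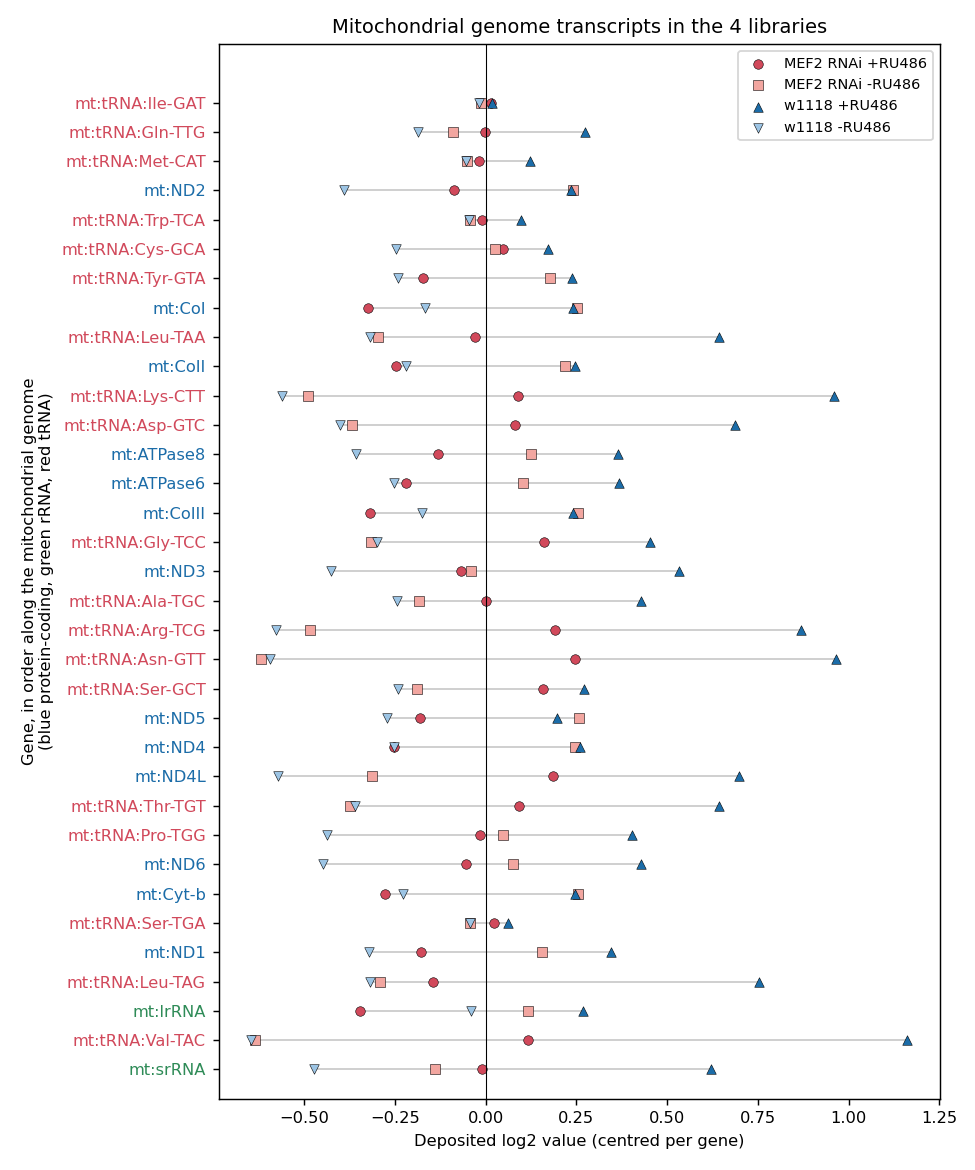
Deposited log2 value (x axis, centred per gene) of each of the 34 mitochondrial genes in the 4 libraries, 1 point per library, with genes in their order along the genome (y axis, names coloured by class) and a grey line spanning the 4 values of a gene. The dark triangles of w1118 flies with RU486 lie furthest to the right for 29 genes, reaching 1.16 for mt:tRNA:Val-TAC, while the 4 values of mt:tRNA:Ile-GAT lie between -0.017 and 0.017.

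The 7 mitochondrial genes of complex I, the NADH dehydrogenase that feeds electrons into the respiratory chain, had median changes of -0.33 (MEF2 RNAi) and 0.67 (w1118). mt:ND4L, 1 of the membrane subunits of this complex (mitochondrial genome, 9545 to 9835, minus strand), had values of 0.19 in MEF2 RNAi flies with RU486, -0.31 in MEF2 RNAi flies without, 0.70 in w1118 flies with RU486 and -0.57 in w1118 flies without. It was therefore higher in the RU486 library of both genotypes, by 0.50 (1.41-fold) and 1.27 (2.41-fold), and it was the only protein-coding gene for which this held on the deposited scale. mt:ND4, which adjoins it on the same strand (8207 to 9545) and shares 1 base with it, had values of -0.25, 0.25, 0.26 and -0.25 in the same order. Its libraries split by genotype and drug in opposite ways, with changes of -0.50 and 0.51. For mt:ND3 (5608 to 5961) the values were -0.068, -0.040, 0.53 and -0.42. The MEF2 RNAi libraries were nearly equal, a change of -0.028, while w1118 flies with RU486 were 1.94-fold above those without. mt:ND6, a further membrane subunit, had -0.055, 0.075, 0.43 and -0.45, and changed by -0.13 and 0.87. In the 3 longer genes mt:ND1, mt:ND2 and mt:ND5 the changes were -0.33, -0.33 and -0.44 in MEF2 RNAi flies and 0.67, 0.63 and 0.47 in w1118 flies.

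mt:Cyt-b encodes cytochrome b, the mitochondrially made subunit of complex III. Its values were -0.28 in MEF2 RNAi flies with RU486, 0.26 without, 0.25 in w1118 flies with RU486 and -0.23 without, with changes of -0.53 and 0.47. The catalytic core of complex IV, cytochrome c oxidase, is formed by the products of mt:CoI, mt:CoII and mt:CoIII. mt:CoI (1474 to 3009, plus strand) had values of -0.32, 0.25, 0.24 and -0.17 and the lowest change of all 34 genes in MEF2 RNAi flies, -0.58, a fold of 0.670. mt:CoIII followed closely at -0.32, 0.25, 0.24 and -0.18, a fold of 0.673. The 3 genes moved alike, with changes from -0.58 to -0.47 in MEF2 RNAi flies and from 0.41 to 0.47 in w1118 flies. The 2 genes of ATP synthase, mt:ATPase8 and mt:ATPase6, overlap by 7 bases and encode subunits of its membrane part. mt:ATPase8 had values of -0.13, 0.12, 0.37 and -0.36, and mt:ATPase6 -0.22, 0.10, 0.37 and -0.25. Both were lowest in w1118 flies without RU486 and highest in w1118 flies with it, and their changes were -0.26 and -0.32 in MEF2 RNAi flies and 0.72 and 0.62 in w1118 flies.

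The 2 ribosomal RNAs form the core of the mitochondrial ribosome, lie side by side on the minus strand with mt:tRNA:Val-TAC between them, and differed from each other. mt:lrRNA, the RNA of the large subunit (12735 to 14058), had values of -0.35 in MEF2 RNAi flies with RU486, 0.12 without, 0.27 in w1118 flies with RU486 and -0.040 without. mt:srRNA, the RNA of the small subunit (14131 to 14916), had values of -0.011, -0.14, 0.62 and -0.47. With RU486 the large subunit RNA thus changed by -0.46 and 0.31 and the small subunit RNA by 0.13 and 1.10, the latter a fold of 2.14 in w1118 flies. mt:lrRNA was the only gene outside the 4 tRNAs with shared values to have a change in w1118 flies below the all-gene median of 0.36.

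Mitochondrial tRNAs carry amino acids to the organelle's ribosomes. They held the largest single change in each genotype, 0.86 for Asn-GTT in MEF2 RNAi flies and 1.81 for Val-TAC in w1118 flies. Annotated tRNA genes are 62 to 72 bases long, and the table does not tell a mature tRNA from a longer transcript that still contains it. 4 of them, Ile-GAT, Met-CAT, Trp-TCA and Ser-TGA, shared all 4 values with other genes of the table, Ile-GAT with 95 of them, a pattern that repeats across unrelated genes and carries little of their own. Their changes lay from 0.028 to 0.065 in MEF2 RNAi flies and from 0.034 to 0.18 in w1118 flies. Over the other 15 the median change was 0.34 and 0.96. Both RU486 libraries were above their vehicle libraries for 17 of the 19 tRNAs, the exceptions being Tyr-GTA at -0.35 and Pro-TGG at -0.065 in MEF2 RNAi flies.

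mt:tRNA:Val-TAC (14059 to 14130, minus strand) had values of 0.12 in MEF2 RNAi flies with RU486, -0.63 without, 1.16 in w1118 flies with RU486 and -0.65 without. Both vehicle libraries were low and nearly equal, and both RU486 libraries stood above them, by 1.68-fold in MEF2 RNAi flies and 3.50-fold in w1118 flies. mt:tRNA:Asn-GTT had values of 0.25, -0.62, 0.97 and -0.59, with folds of 1.82 and 2.95. Next to it on the plus strand, mt:tRNA:Arg-TCG had values of 0.19, -0.48, 0.87 and -0.58, with folds of 1.60 and 2.72. These were the 3 mitochondrial genes at or above 1.5-fold in MEF2 RNAi flies, and mt:tRNA:Lys-CTT, with values of 0.090, -0.49, 0.96 and -0.56, lay just under at 1.49-fold there and at 2.87-fold in w1118 flies. The vehicle libraries of the 2 genotypes differed little in these 4 tRNAs, by -0.025 to 0.092, although all genes together differed by a median of 0.38. Folds of at least 2 in w1118 flies were also found for Asp-GTC at 2.13, Leu-TAG at 2.10 and Thr-TGT at 2.00. Leu-TAG had values of -0.14, -0.29, 0.75 and -0.32 and Leu-TAA, which reads the other family of leucine codons, -0.028, -0.30, 0.64 and -0.32. Both were high in w1118 flies with RU486 and differed less among the other libraries. The lowest tRNA change in w1118 flies, apart from the 4 with shared values, was 0.42 for Cys-GCA.

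The paper's legends use folds of 1.5 or more and 0.65 or less, together with no such regulation in controls. Only the fold thresholds were applied here, not the condition on controls. In MEF2 RNAi flies 3 of 34 mitochondrial genes were at or above 1.5, where 0.807% of all genes were. These 3 genes were also higher with RU486 in w1118 flies, at 2.72-fold to 3.50-fold. At or below 0.65 in MEF2 RNAi flies were 0 of 34, where 6.99% of all genes were. In w1118 flies 19 of 34 were at or above 1.5, where 6.54% of all genes were, and 0 of 34 were at or below 0.65, where 0.0384% were. These 19 were 11 tRNAs, mt:srRNA and 7 of the 13 protein-coding genes. A value above 0 for the RU486 change of MEF2 RNAi flies was seen for 19 mitochondrial genes, 17 of them tRNAs, and for 11.1% of all genes, and a change above 0 in w1118 flies for all 34 and for 93.1% of all genes. The same 19 were above 0 in both genotypes, which was the case for 9.41% of all genes.

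**Figure D2:**
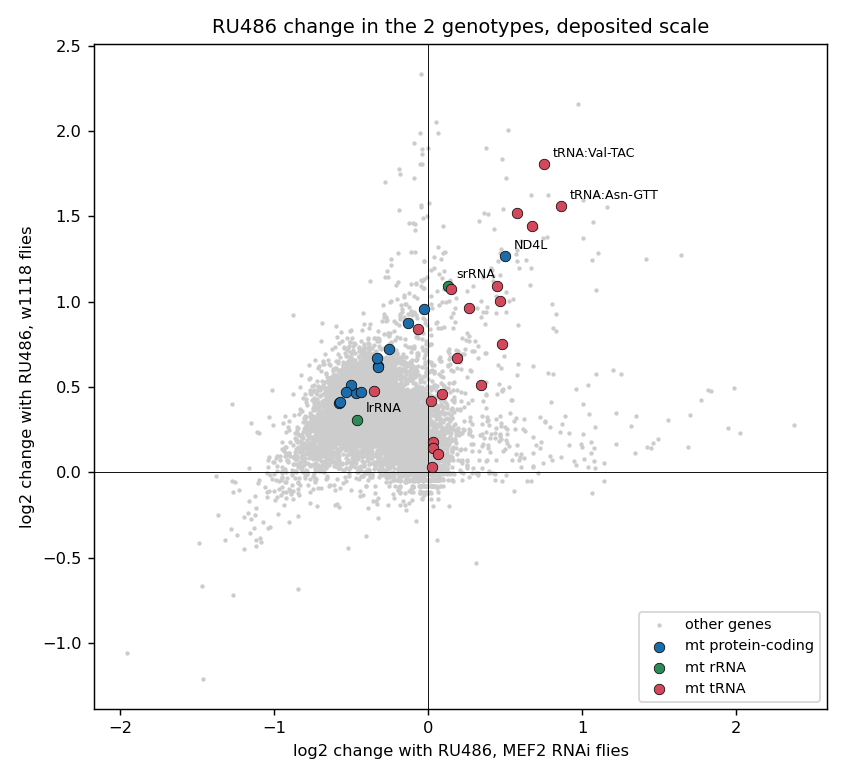
Change with RU486 in MEF2 RNAi flies (x axis, log2) against that in w1118 flies (y axis, log2) for each gene on the deposited scale, with mitochondrial protein-coding, rRNA and tRNA genes in colour over the other genes in grey. Most grey points lie to the left of 0 and above 0, around medians of -0.38 and 0.36, while 17 of the 19 tRNAs and mt:ND4L lie above 0 on both axes, as does mt:srRNA.

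The median of the protein-coding genes in MEF2 RNAi flies turned its direction with the scale, while the tRNA median was above 0 on all 3 scales in both genotypes. On the deposited scale the RU486 library of MEF2 RNAi flies was the lower one for 12 of 13 protein-coding genes, at a median of -0.33, but relative to all genes the median was 0.031 with 7 of 13 above 0, and against the ribosomal protein genes it was 0.13 with 9 of 13 above 0. In w1118 flies their median was 0.62, then 0.27 with 13 of 13 above 0 and 0.13 with 8 of 13 above 0. For the tRNAs the median in MEF2 RNAi flies was 0.18 as deposited, 0.55 against all genes and 0.65 against the ribosomal protein genes, with 19 of 19 above 0 on both of these scales, where 48.1% and 68.9% of all genes were above 0. In w1118 flies it was 0.75, 0.40 and 0.26, with 15 and 12 of 19 above 0, where 51.4% and 19.5% of all genes were. Over the 15 tRNAs with values of their own the medians relative to all genes were 0.71 in MEF2 RNAi flies and 0.61 in w1118 flies. In each genotype 15 of 15 were above 0 on that scale. The other 4 changed by 0.028 to 0.065 as deposited in MEF2 RNAi flies. The added constants of 0.36 and 0.47 make up most of their values on the other 2 scales. Higher with RU486 in both genotypes were 23 of 34 mitochondrial genes relative to all genes, 15 of them tRNAs and 7 protein-coding, and 20 of 34 relative to ribosomal protein genes, 12 of them tRNAs and 7 protein-coding. Over the whole table these shares were 16.1% and 13.5%. At or above 1.5-fold in MEF2 RNAi flies were 10 of 34 on the first of these scales and 13 of 34 on the second, where 2.14% and 3.36% of all genes were, and in w1118 flies 11 and 7 of 34, where 1.25% and 0.861% were. No mitochondrial gene was at or below 0.65-fold on either scale, where at most 0.53% of all genes were.

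Between the genotypes, the vehicle libraries separated the classes. Without RU486 all 13 protein-coding genes were higher in MEF2 RNAi flies than in w1118 flies, by 0.26 for mt:ND4L to 0.63 for mt:ND2, while the tRNAs had a median difference of 0.026 and 94.5% of all genes were above 0. Only mt:ND2 reached 1.5-fold in this comparison, where 6% of all genes did, and 0 of 34 were at or below 0.65-fold, where 0.00769% were. With RU486 0 of 34 mitochondrial genes were above 0, against 6.37% of all genes, and the differences ran from -0.0026 for mt:tRNA:Ile-GAT to -1.05 for mt:tRNA:Val-TAC. A fold of 0.65 or less was found for 7 of them, 6 tRNAs and mt:srRNA, and for 3.87% of all genes, and a fold of 1.5 or more for 0 of 34 and 0.599%. Relative to all genes the protein-coding genes differed between genotypes by a median of 0.11 without RU486 and -0.17 with it, and the tRNAs by -0.34 and -0.072, or by -0.31 and -0.20 over the 15 with values of their own. Relative to ribosomal protein genes these medians were -0.072 and -0.11 for the protein-coding genes, so their vehicle comparison turned its direction. For the tRNAs they were -0.52 and -0.011, or -0.50 and -0.14 for those 15. As deposited, the tRNA median without RU486 was 0.026, or 0.053 over those 15. The constants of -0.37 and -0.55 added to this comparison make up most of the tRNA values on the other 2 scales.

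Subtracting the change in w1118 flies from that in MEF2 RNAi flies gave negative values for all 34 genes on the deposited scale, where 4.84% of all genes were above 0. The protein-coding genes were tightly grouped in this measure, from -1.01 for mt:ND4 to -0.77 for mt:ND4L with a median of -0.98, below the all-gene median of -0.78. All 13 had a ratio of folds of 0.65 or less, as did 63.5% of all genes. Relative to all genes their median was -0.27 with 13 of 13 below 0. Relative to ribosomal protein genes it was -0.028 with 8 of 13 below 0, so their difference between the genotypes was close to that of the cytosolic ribosomal protein genes. The tRNAs were spread from -1.06 to -0.0059 around a median of -0.54, and relative to all genes 13 of 19 were above 0 with a median of 0.18. Over the 15 with values of their own it was 9 of 15 with a median of 0.019. Of all genes 43.0% were above 0 on this scale. Relative to ribosomal protein genes the tRNA median was 0.42, or 0.26 over those 15.

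Differences between genes within a pair of libraries do not depend on an offset common to a library, and several of these gaps had a like size in both genotypes, which share no library. mt:ND3 lay above mt:CoIII, its neighbour beyond mt:tRNA:Gly-TCC, by 0.54 in MEF2 RNAi flies and 0.54 in w1118 flies. mt:ND6 lay above mt:Cyt-b, which follows it on the same strand, by 0.40 in each. mt:tRNA:Lys-CTT lay above the adjacent mt:CoII by 1.05 in each. The gap between mt:srRNA and mt:lrRNA was 0.59 and 0.79, that between mt:ND4L and mt:ND4 0.997 and 0.76, and those of mt:tRNA:Val-TAC over mt:lrRNA 1.22 and 1.498 and over mt:srRNA 0.62 and 0.71. The overlapping pair mt:ATPase8 and mt:ATPase6 had the smallest gap shown, 0.066 and 0.11. These 8 pairs were chosen with the values in view. Over the 13 protein-coding genes the changes in the 2 genotypes had a Spearman's rho of 0.93 and a Pearson's r of 0.98, and over the 19 tRNAs 0.78 and 0.80. Over the 12978 genes outside the mitochondrial genome they were -0.33 and -0.17, or -0.014 and 0.13 over the 10883 of these that were not flat, and over 65 nuclear genes of the respiratory complexes 0.84 and 0.77. Genes measured in the same libraries are not independent replicates, and these coefficients are descriptions.

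**Figure D3:**
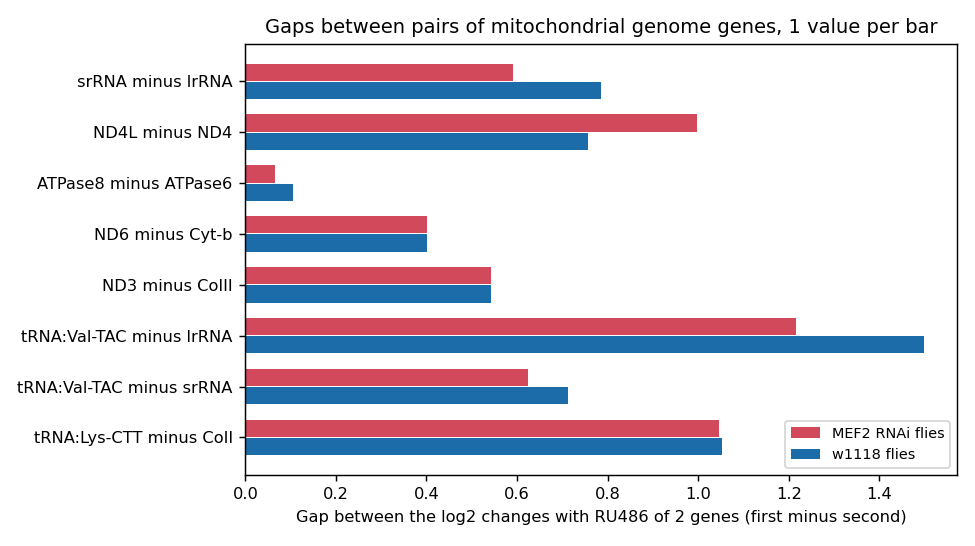
Gap between the log2 changes with RU486 (x axis) of 8 pairs of mitochondrial genes (y axis, first gene minus second), 1 bar per genotype and 1 value per bar. Every bar lies above 0, and the 2 bars of a pair are alike for mt:ND3 over mt:CoIII at 0.54 and for mt:tRNA:Lys-CTT over mt:CoII at 1.05.

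Shorter protein-coding genes tended to have the higher changes in both genotypes, although mt:ATPase8, the shortest, did not lead them. The 4 shortest genes, mt:ATPase8 at 162 bases, mt:ND4L at 291, mt:ND3 at 354 and mt:ND6 at 525, had median changes of -0.079 and 0.92, against -0.47 and 0.47 for the 9 genes of 600 bases or longer. The gap of 0.39 and 0.44 between these medians rests on a split chosen after the values were seen. Over the 13 genes length and change had a Spearman's rho of -0.77 in MEF2 RNAi flies and -0.71 in w1118 flies, while for the start position in the genome rho was 0.17 and 0.37. Over the 19 tRNAs, which hardly differ in length, rho with length was 0.16 in both. mt:srRNA, at 786 bases, is shorter than mt:lrRNA, at 1324, and had the higher change in each genotype. The tRNA median lay above that of the protein-coding genes by 0.52 in MEF2 RNAi flies and 0.13 in w1118 flies, or by 0.68 and 0.34 without the 4 tRNAs that share values.

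**Figure D4:**
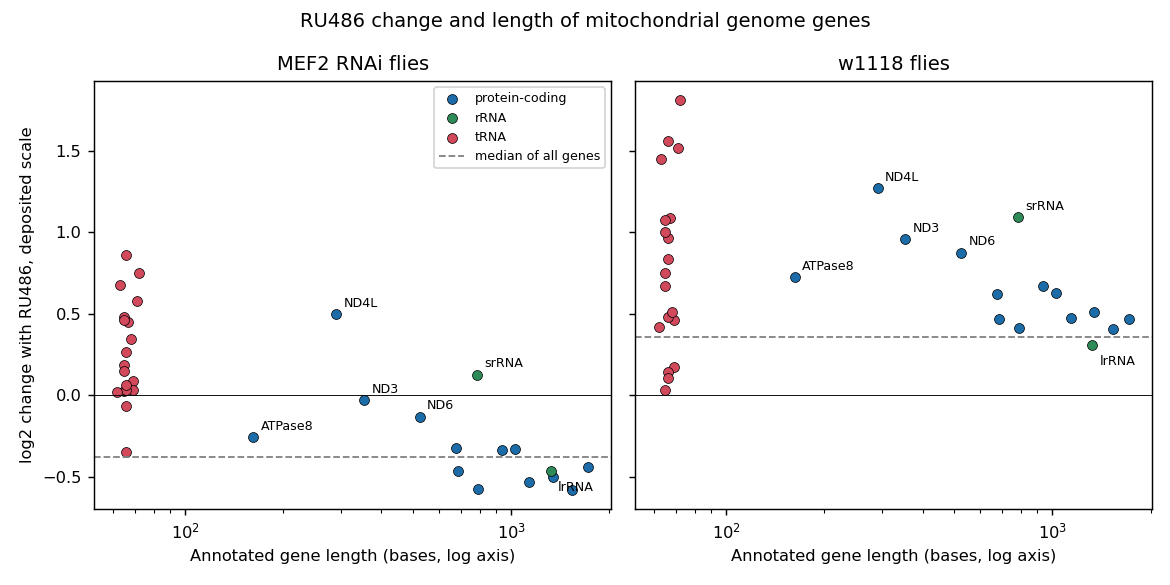
Change with RU486 (y axis, log2, deposited scale) against annotated gene length (x axis, bases, log axis) of the 34 mitochondrial genes in MEF2 RNAi flies (left) and w1118 flies (right), with the median of all genes as a dashed line. In both panels mt:ND4L at 291 bases is the highest protein-coding gene, at 0.50 and 1.27, mt:CoI at 1536 bases the lowest, at -0.58 and 0.41, and mt:srRNA lies above mt:lrRNA.

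Strand and precursor were less marked than length among the protein-coding genes. The 9 on the plus strand had a median change above that of the 4 on the minus strand by 0.059 in MEF2 RNAi flies and 0.028 in w1118 flies. The run of 7 protein-coding genes from mt:ND2 to mt:ND3 had medians of -0.33 and 0.62, the pair mt:ND6 and mt:Cyt-b -0.33 and 0.67, and the run from mt:ND5 to mt:ND4L -0.44 and 0.51. Among the tRNAs the 13 plus-strand genes lay above the 6 minus-strand genes by 0.29 in MEF2 RNAi flies and 0.093 in w1118 flies. All 4 tRNAs with shared values are on the plus strand, and without them these gaps were 0.41 and 0.34. The overlapping mt:tRNA:Trp-TCA and mt:tRNA:Cys-GCA lie on opposite strands and share 8 bases. Whether reads were counted by strand is not given in the sources used here, so their values may not be separate. The same holds for reads that mitochondrial genes could share with copies of mitochondrial DNA in the nuclear genome.

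Short nuclear genes had lower median changes than the mitochondrial tRNAs in both genotypes, but few of them carried values of their own. Of 102 nuclear genes with an exon length of at most 100 bases, 78.4% had no value farther than 0.1 from 0, compared with 16.1% of all genes and 3 of the 34 mitochondrial genes. The 22 others had medians of -0.12 in MEF2 RNAi flies and 0.18 in w1118 flies. Of the 5069 nuclear genes with the longest exon length, 4791 had a value farther than 0.1 from 0, with medians of -0.43 and 0.43. The short nuclear genes were thus the higher ones in MEF2 RNAi flies, as among mitochondrial protein-coding genes. In w1118 flies they were the lower ones, unlike those genes. Whether length accounts for the mitochondrial values was not tested. Among the 19 nuclear tRNA genes 94.7% were flat, with no value farther than 0.1 from 0. Of 14 small nuclear RNA genes, 9 were higher with RU486 in both genotypes on the deposited scale, beside 9.41% of all genes. The medians of the 14 were 0.063 and 0.069, but 57.1% of them were flat. The 6 that were not had medians of 0.16 and 0.23. These classes were looked at after the mitochondrial values had been seen.

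Mitochondrial and nuclear subunit genes of the same complex were then set side by side. In complex I the median of the 33 nuclear genes was -0.68 in MEF2 RNAi flies, against -0.33 for the mitochondrial genes. At or below 0.65-fold were 24 of the 33 and 0 of the 7 as deposited, where 6.99% of all genes were, and 0 of either relative to all genes, where 0.438% were. In w1118 flies the medians were 0.22 and 0.67, so the mitochondrial genes lay above the nuclear ones by 0.35 and 0.45. In complex III mt:Cyt-b lay above the median of 9 nuclear genes by 0.065 and 0.12, and in ATP synthase the mitochondrial median lay above that of 13 nuclear genes by 0.19 and 0.22. In complex IV the order was the reverse, and the mitochondrial median minus that of 10 nuclear genes was -0.16 and -0.085. Pooled over the 4 complexes, the mitochondrial median lay above that of 65 nuclear genes by 0.29 and 0.32. Of these 65 nuclear genes 33 were at or below 0.65-fold in MEF2 RNAi flies as deposited, and 0 were relative to all genes. Examples of nuclear genes are ND-75, which holds iron-sulphur clusters of complex I, at -0.63 and 0.53, and COX5B, a complex IV subunit, at -0.75 and 0.044. Their difference between the genotypes, a median of -0.92 for the 65 genes, was near the -0.98 of the mitochondrial protein-coding genes.

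**Figure D5:**
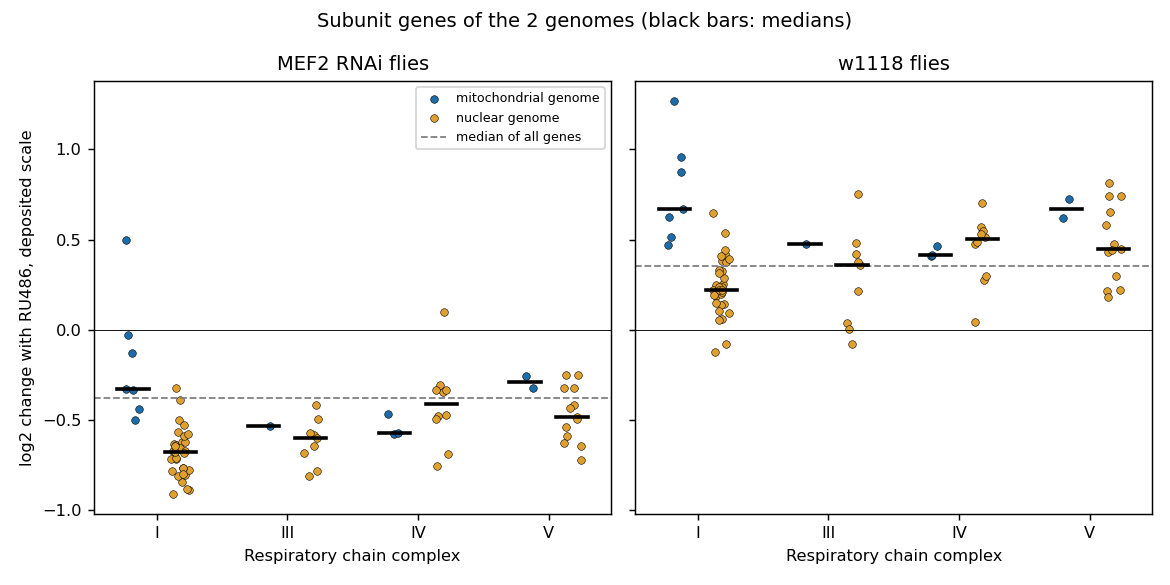
Change with RU486 (y axis, log2, deposited scale) of mitochondrial and nuclear subunit genes of complexes I, III, IV and V (x axis), 1 point per gene spread sideways for legibility and a black bar at each median, in MEF2 RNAi flies (left) and w1118 flies (right). In complex I the mitochondrial median lies above the nuclear one in both panels, -0.33 against -0.68 and 0.67 against 0.22, and in complex IV slightly below it.

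Nuclear genes that copy, transcribe and translate the mitochondrial genome were mostly lower in the RU486 library of MEF2 RNAi flies as deposited. Each of the 6 lists had a median below 0 there, as did all genes at -0.38 and the mitochondrial protein-coding genes at -0.33. The mitochondrial tRNAs had 0.18. Over 121 genes the median was -0.57 in MEF2 RNAi flies, where 41 were at or below 0.65-fold beside 6.99% of all genes, and 0.27 in w1118 flies, where 1 was at or above 1.5-fold beside 6.54%. Relative to all genes these medians were -0.20 and -0.080, with 2 genes at or below 0.65-fold in MEF2 RNAi flies beside 0.438% of all genes. TFAM, which packages mitochondrial DNA and starts its transcription, had values of -0.41, 0.38, 0.18 and -0.15 in the order of libraries used above, and changed by -0.80 and 0.33. mtRNApol, the polymerase that makes the transcripts described here, changed by -0.62 and 0.35, and mtTFB2, its initiation factor, by -0.42 and -0.020. mTTF, a transcription termination factor, changed by -0.67 and 0.23, and bsf, an RNA-binding protein that stabilises mitochondrial messenger RNAs, by -0.56 and 0.37. Of the 121 genes 1 was above 0 in MEF2 RNAi flies, beside 11.1% of all genes. It was tam, the catalytic subunit of the mitochondrial DNA polymerase, with values of -0.060, -0.15, 0.61 and -0.39. The changes of tam were 0.091 and 1.001. mtSSB, which binds single-stranded mitochondrial DNA, changed by -0.11 and 0.47, and mtDNA-helicase, which unwinds it, by -0.095 and 0.12. The 72 mitochondrial ribosomal protein genes had medians of -0.58 and 0.23, and the 15 mitochondrial tRNA synthetase genes, whose enzymes charge the tRNAs above, -0.49 and 0.36. Among the synthetases PheRS-m was lowest at -0.95 and GluRS-m highest at -0.011 in MEF2 RNAi flies.

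Markers of other tissues differed between the same libraries, compared here on the deposited scale. All 5 gut markers, digestive proteases such as Jon99Fi, were highest in w1118 flies with RU486, the library where 29 mitochondrial genes peaked. So were all 4 neuron markers, 5 of the 8 muscle markers, 1 of the 3 hemocyte markers and 44.6% of all genes. The gut markers had values from 0.15 to 1.42 there and from -0.47 to -0.061 in w1118 flies without RU486. Their median changes were -0.041 and 0.93, compared with 0.34 and 0.96 for the 15 tRNAs with values of their own. All 6 germline markers were highest in MEF2 RNAi flies with RU486, from 0.55 to 1.70, as were 3.97% of all genes. No mitochondrial gene was highest there on this scale. All 6 fat body markers were highest in MEF2 RNAi flies without RU486, from 0.19 to 0.79, as were 49.3% of all genes. The 8 muscle markers had a median change of -0.49 and 0.51, the 4 neuron markers -0.53 and 0.36 and the 3 hemocyte markers -0.35 and 0.47. Centred values do not show whether a marker is present or near 0 in a library. In RNA of whole thoraces, fewer cells of a type and less RNA per cell cannot be told apart. The part of these tissues in the mitochondrial values was not tested.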

How the data were processed

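Total RNA of 8 thoraces per group was made into 4 libraries with a stranded total RNA kit, per the labels. What the authors deposited is a single table of 13012 genes with log2 values that are centred per gene: each gene's 4 values add up to 0, with a largest deviation of 7.0e-15. The aligner, counter, genome build, normalization and any removal of ribosomal RNA are not given in the sources used here, and depth is unknown, so no interval or floor is given. Each of the 4 columns carries the title of its sample.

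Changes were computed as differences of deposited log2 values, and folds as 2 to that power, with thresholds of 1.5 and 0.65 from the paper's legends. The legends' further condition on controls was not applied. No test was possible with 1 library per group. Named were all mt: genes, Mef2, 9 regulators of mitochondrial DNA and RNA (mtTFB1 was not matched) and, in each nuclear list, the 2 genes with the highest and the 2 with the lowest difference between genotypes, of which examples are printed. Jon99Fi was named as an example of its marker list after its values were seen. The members and lists were chosen with earlier results of these data known. Flat genes had no value farther than 0.1 from 0, and values counted as shared when equal to 12 decimals. Alternatives were 3 other scales, thresholds of 2 and 0.5, and subsets of members. Base composition was planned but not analysed. Positions come from Ensembl release 115 (BDGP6), and 10792 table names match a current symbol there. Python 3.11.15, numpy 2.4.6, pandas 2.3.3 and matplotlib 3.10.9 were used, and the code was tested on simulated data.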

Additional observations from a re-analysis of the deposited data

Results flagged for a closer look

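3 protein-coding genes had opposite directions with RU486 in the 2 genotypes on each of the 3 scales of the report. The change in MEF2 RNAi flies minus that in w1118 flies was -0.90 for mt:ND5, -1.01 for mt:ND4 and -0.93 for mt:CoII. Relative to ribosomal protein genes all changes of these 3 genes were small. In MEF2 RNAi and w1118 flies they were 0.033 and -0.019 for mt:ND5 and 0.0034 and -0.022 for mt:CoII. For mt:ND5 and mt:CoII the genotype above 0 was therefore not the same on all scales. mt:ND4 was below 0 in MEF2 RNAi flies on each scale, at -0.030 on this one, where w1118 flies had 0.025. With 1 library per group these differences were not tested.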

How the results depend on the processing

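No paired analysis was possible because each group holds 1 library, and no library could be left out. The median change of the 34 mitochondrial genes in MEF2 RNAi flies, 0.030 as deposited, was 0.39 with libraries set to all genes, 0.50 to ribosomal protein genes and 0.44 to genes that were not flat, and it was -0.33 over protein-coding genes alone, -0.0033 without tRNAs that share values and 0.065 without overlapping genes. In the same order the 0.65 in w1118 flies became 0.30, 0.16, 0.26, 0.62, 0.70 and 0.67, the 0.21 between genotypes without RU486 became -0.16, -0.34, -0.20, 0.48, 0.30 and 0.092, and the difference of -0.87 became -0.15, 0.091, -0.060, -0.98, -0.91 and -0.83. Between genotypes with RU486, -0.51 became -0.17, -0.10, -0.12, -0.52 without shared values and -0.52 without overlapping genes. Members at or above 1.5-fold numbered 3 in MEF2 RNAi flies and 10, 13 and 11 on the other scales, 0 at 2-fold and 0 of the protein-coding genes. In w1118 flies they numbered 19, then 11, 7, 9, 9 and 7. The gap between mitochondrial and nuclear subunits was 0.29 and 0.32 with complexes pooled, where single complexes gave 0.35 and 0.45 (I), 0.065 and 0.12 (III), -0.16 and -0.085 (IV) and 0.19 and 0.22 (V). With assembly factors added it was 0.088 and 0.11 in complex III and -0.096 and -0.058 in complex IV. The tRNA gap over protein-coding genes was 0.68 and 0.34 without shared values and 0.65 and 0.29 without overlapping genes. For the 121 nuclear genes the median was -0.20 and -0.080 relative to all genes and -0.10 and -0.22 relative to ribosomal protein genes, the count at or below 0.65-fold in MEF2 RNAi flies went from 41 to 2, 1 and, at 0.5-fold, 2, and the single gene at or above 1.5-fold in w1118 flies to 0 on the ribosomal protein scale. A shift of scale adds a constant to every gene, so gaps between genes do not depend on it, while thresholds, directions and differences between genotypes do. Which scale holds cannot be told from centred values, and depth, which limits short genes such as the tRNAs, is unknown.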
